A study of Mus musculus with 6 samples.

Results

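The genes considered here are 8 mouse genes grouped under sperm-egg fusion: Izumo1, Izumo2, Izumo3, Izumo4, Spaca6, Tmem95, Dcst1 and Dcst2. Their proteins act when a sperm binds to and fuses with the egg, or share the Izumo domain with one that does. The 8 genes were chosen by symbol, with earlier results of these data known. All 8 were found among the 25165 gene symbols measured. Each stood on 1 row of every table, and all 8 passed the filter on low values. Their transcript levels were measured by RNA sequencing of whole testis from C57BL/6 mice aged 8 weeks. The 6 libraries form a group of 3 called KO and a group of 3 called WT, after their titles. The labels name the deleted long non-coding RNA, Teshl, as NR_038002, and write the knockout genotype as NR_038002-/-, with no word on how the locus was altered. They also do not say whether each library is a separate animal, so every p-value rests on library-to-library spread, some of which may be technical.

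In all 6 libraries the genotype field says the opposite of the title, so groups were formed by title and each difference is KO minus WT. The targeted gene, 1700027A15Rik, was at 0.385 FPKM in KO replicate 1 and was listed at 0 in replicates 2 and 3. It was at 1028, 989 and 1081 FPKM in the WT libraries, which goes with the titles. The unit was taken as FPKM from the values, since no label or header names it. FPKM are fragments scaled to transcript length and to library depth, so on that reading levels of different genes can be set side by side. Judged from the steps between low values, a library held 28000000 to 38900000 fragments, and at that depth 3 fragments on a transcript of 1 kb equal 0.0771 to 0.107 FPKM. The tissue label was checked against marker genes. The elongating spermatid genes summed to 26380 to 33564 FPKM, and the 5 oocyte genes to between 2.79 and 3.43 FPKM. Gdf9, at 1.77 to 2.72 FPKM, made up most of the oocyte sum, and Nlrp5 was at 0.569 to 0.810 FPKM. Bmp15 was listed at 0 in all 6 libraries. The 4 epididymis genes summed to 2.51 to 3.63 FPKM: Lcn5 and Adam7 were listed at 0 throughout, Defb20 was at 0.613 FPKM or less, and Rnase10 was at 2.30 to 3.02 FPKM.

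Sperm and egg join in steps. IZUMO1, an immunoglobulin-type membrane protein, moves from the acrosome to the sperm surface after the acrosome reaction and binds JUNO (encoded by Izumo1r) on the egg membrane. SPACA6, TMEM95, DCST1 and DCST2 are further sperm membrane proteins without which mouse sperm bind the egg but fail to fuse or fertilise. IZUMO2, IZUMO3 and IZUMO4 share the Izumo domain with IZUMO1, and IZUMO3 is known for its part in acrosome formation. These genes are transcribed in haploid germ cells of the testis, so bulk testis RNA measures them in a mixture of cells. Fewer cells of a type and less RNA per cell cannot be told apart in such samples.

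Promoter sequence of Izumo1 is shown because it was the member with the smallest p in the group comparison and the only one of the 7 members with a promoter in the RefSeq table that held a full cyclic AMP response element. This element, TGACGTCA, is known as a binding site for CREB and CREM proteins, and CREM is a transcription activator of round spermatids. The window runs from 250 bases before to 50 bases after the RefSeq start, both strands were searched, and 1.79% of 32851 such windows (588) held the element. The 250 bases before the Izumo1 start, chr7:45621561-45621810 on the plus strand of GRCm38.p6, read as follows, with the element in capitals at positions -96 to -89 from the start.
Izumo1: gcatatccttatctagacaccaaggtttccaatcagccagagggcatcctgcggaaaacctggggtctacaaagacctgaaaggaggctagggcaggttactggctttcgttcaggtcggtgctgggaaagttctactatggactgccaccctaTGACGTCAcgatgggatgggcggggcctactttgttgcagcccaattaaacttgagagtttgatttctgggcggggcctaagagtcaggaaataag
The shorter element TGACG, which lies inside the full one on both strands, was found in the windows of Izumo1 and Tmem95 and in 20.8% of all windows. A match describes the letters only, and binding was not measured in these data.

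The stretch between Dcst1 and Dcst2 is shown because these members share it. Dcst1 is transcribed from the minus strand of chromosome 3 and Dcst2 from the plus strand, and the starts given in the RefSeq promoter table, at 89365253 and 89365319, face away from each other across 65 bases. Those bases, chr3:89365254-89365318 of GRCm38.p6, are given on the plus strand, with no part marked.
Dcst1-Dcst2: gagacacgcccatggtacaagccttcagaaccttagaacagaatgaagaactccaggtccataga
Neither searched element occurs in the windows of Dcst1 or Dcst2. Both annotations also begin Dcst2 further back, inside the bounds of Dcst1, at 89350417 in RefSeq and at 89361975 in GENCODE M21. In GENCODE M21 the bounds of the genes overlap by 3279 bp while their exons share 0 bp. The map of the pair shows this arrangement.

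**Figure D1:**
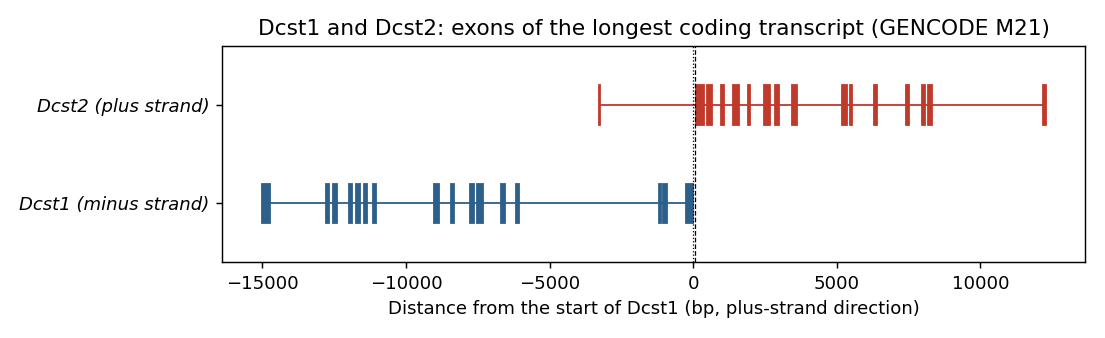
Exons (boxes) of the longest coding transcript of Dcst1 and Dcst2 in GENCODE M21, by distance in bp from the start of Dcst1. The dotted and the dashed line mark the starts of Dcst1 and Dcst2 in the RefSeq promoter table, which are separated by 65 bases, with the genes running in opposite directions.

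The other members lie apart from one another in GENCODE M21 on GRCm38. Izumo1 is on chromosome 7 at 45621811 to 45628823, and Izumo2 is on the same chromosome at 44708742 to 44719844, both on the plus strand. Izumo3 is on chromosome 4 at 92144329 to 92147234 (minus strand) and Izumo4 on chromosome 10 at 80702184 to 80705373 (plus strand). Spaca6 is on chromosome 17 at 17827158 to 17843009 (plus strand), and Tmem95 on chromosome 11 at 69876684 to 69878018 (minus strand). Dcst1 spans 89350219 to 89365253 of chromosome 3, and Dcst2 spans 89361975 to 89377549. None of the 8 has a near copy, where a near copy is a gene that matches 50% or more of the longest coding transcript at 90% identity or better. The best match covered 9.70% of that of Izumo4.

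Izumo1, which encodes the JUNO ligand, was higher in every KO library than in every WT library, but the difference did not pass the test. It was at 45.7, 54.3 and 46.9 FPKM in KO replicates 1, 2 and 3, and at 38.5, 36.9 and 43.0 FPKM in WT replicates 1, 2 and 3. KO replicate 2 was the highest library and WT replicate 2 the lowest, and the groups did not overlap. The means were 48.9 ± 4.68 FPKM in KO and 39.4 ± 3.15 FPKM in WT (SD, n = 3 each), a ratio of 1.24. On the log2(FPKM + 1) scale the difference was 0.30 (SE 0.081, 95% interval 0.12 to 0.48, limma with Benjamini-Hochberg adjusted p = 0.144 over 12952 tested genes). Of all tested genes 2.90% had a smaller p. Groups that did not overlap, with KO higher, were seen in 5.92% of all tested genes and in 2 of the 8 members, Izumo1 and Dcst1. Annotated exons of Izumo1 share 654 bp with those of Rasip1, a gene of blood vessels on the same strand. Rasip1 itself was at 0.977 to 1.20 FPKM in KO and 0.904 to 0.973 FPKM in WT.

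Izumo2 was the most abundant member and also the one that varied most between libraries. It was at 79.3, 111 and 105 FPKM in the KO libraries and at 80.7, 64.9 and 92.8 FPKM in the WT libraries. KO replicate 1 lay below WT replicates 1 and 3, so the groups overlapped. The highest library held 1.71 times the level of the lowest. The difference was 0.30 on the log2(FPKM + 1) scale (SE 0.17, 95% interval -0.12 to 0.73, limma adjusted p = 0.453), as large as that of Izumo1 with a wider interval.

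Izumo3, needed for the acrosome to form normally, had a difference of 0.24 (SE 0.13, 95% interval -0.062 to 0.54, limma adjusted p = 0.423). Its values were 46.6, 64.8 and 52.0 FPKM in KO and 42.8, 42.7 and 51.9 FPKM in WT. KO replicate 2 stood above the other five libraries, and KO replicate 1 lay below WT replicate 3. Izumo4, whose product lacks the membrane anchor of IZUMO1, was at 44.2, 50.5 and 53.7 FPKM in KO and at 45.9, 45.2 and 51.3 FPKM in WT. Here the lowest of all 6 libraries was KO replicate 1 and the groups overlapped. Its difference was 0.056 (SE 0.080, 95% interval -0.12 to 0.24, limma adjusted p = 0.744).

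Spaca6 and Tmem95, which encode single-pass sperm membrane proteins, were the least abundant members. Spaca6 was at 14.9, 20.2 and 16.8 FPKM in KO and at 13.8, 12.2 and 17.3 FPKM in WT. WT replicate 3 exceeded KO replicates 1 and 3, so the groups overlapped. The difference was 0.25 (SE 0.14, 95% interval -0.082 to 0.58, limma adjusted p = 0.442). Spaca6 also hosts Mir99b, Mirlet7e and Mir125a, microRNA genes that were listed at 0 in all 6 libraries. Such a listing does not show whether the microRNAs were present. Tmem95 was at 9.56, 11.5 and 9.37 FPKM in KO and at 8.39, 10.2 and 11.4 FPKM in WT. Both groups covered nearly the same range, and the difference was 0.023 (SE 0.11, 95% interval -0.23 to 0.28, limma adjusted p = 0.932). The interval leaves room for a change of Tmem95 in either direction.

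Dcst1 and Dcst2 encode related multi-pass membrane proteins of the DC-STAMP type. Dcst1 was at 21.4, 25.3 and 22.5 FPKM in KO and at 20.5, 20.0 and 21.1 FPKM in WT. The groups did not overlap, though KO replicate 1 and WT replicate 3 differed by less than the spread within KO. The difference was 0.16 (SE 0.069, 95% interval 0.00378 to 0.31, limma adjusted p = 0.339). Of 5241 bp in annotated exons of Dcst1, 1268 bp are shared with those of Gm10702, a pseudogene on the opposite strand. No value was listed for Gm10702, and the part of its reads in the Dcst1 values was not tested. Dcst2 was at 22.9, 26.4 and 24.3 FPKM in KO and at 24.5, 22.4 and 24.4 FPKM in WT, with overlap, and its difference was 0.042 (SE 0.068, 95% interval -0.11 to 0.19, limma adjusted p = 0.770). The ratio of Dcst1 to Dcst2 was 0.935, 0.960 and 0.927 in KO and 0.837, 0.894 and 0.863 in WT. Dcst1 was thus below Dcst2 in all 6 libraries, by a smaller margin in KO. That comparison was picked after the values were seen and was not tested.

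**Figure D2:**
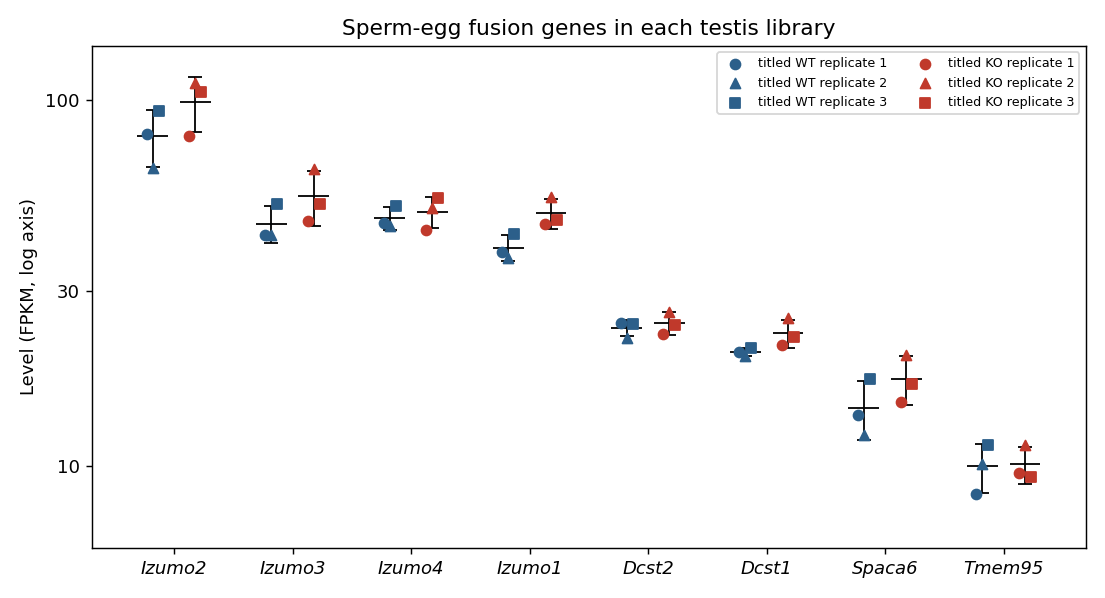
Level of each sperm-egg fusion gene in FPKM on a log axis, in the 3 WT libraries (blue) and the 3 KO libraries (red), with the replicate number as the marker shape, the mean as a short line and the SD as a bar. Red lies wholly above blue for Izumo1 and Dcst1 only, and the genes run from Izumo2 (mean 88.9 FPKM) down to Tmem95 (10.1 FPKM).

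The order of the levels held across the groups in its broad steps. Izumo2 (mean 88.9 FPKM over 6 libraries) stood above every other member in every library. Izumo3 (50.2), Izumo4 (48.5) and Izumo1 (44.2) followed, and the ranges of neighbours among these overlapped. Izumo3 exceeded Izumo4 in 3 of the 6 libraries. Dcst2 (24.2) and Dcst1 (21.8) came next, with no overlap between Izumo1 and Dcst2. The ranges of Dcst2 and Dcst1 overlapped. The ranges of Dcst1 and Spaca6 (15.9) overlapped slightly between libraries, but Dcst1 was higher than Spaca6 in each of the 6. Tmem95 (10.1) was below Spaca6 in all of them. Among the 12952 tested genes the mean of Izumo2 exceeded that of 93.0%, that of Izumo1 85.8% and that of Tmem95 57.5%. From the depth and the longest coding transcript in GENCODE M21, an estimated 125 to 2721 fragments lay behind each value. The annotation used for the deposited values is not known, so these counts are approximate. The order of levels between genes likewise rests on transcript lengths that are not known here. For Tmem95 in WT replicate 1, the smallest of these, counting error alone gives a coefficient of variation of 8.94%, and for Izumo1 at its lowest 2.49%. Such figures cover counting error only.

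As a group, 0 of the 8 members were called by limma, where 1.15% of all tested genes were called in either direction. At an unadjusted p under 0.05, 2 members were higher and 0 lower, against 5.38% of all tested genes higher. All 8 members had a positive difference, from 0.023 to 0.30 on the log2(FPKM + 1) scale, with a median of 0.20. Among all tested genes 34.3% had a positive difference, and their median was -0.043. Members share their libraries and are not replicates, so these counts describe the list and carry no test. Without KO replicate 2, 6 of the 8 were positive and the median was 0.10. The median of all tested genes depended on scaling, at -0.054 with equal library totals, -0.016 with upper-quartile and -0.0055 with median-of-ratios scaling. The median of the members was then 0.18, 0.23 and 0.24. Shares of all tested genes given here are those of the values as deposited.

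The libraries themselves were uneven across the members. KO replicate 2 was the highest library for 7 of the 8 members, all but Izumo4, while 19.3% of all tested genes were highest there. WT replicate 2 was the lowest library for 6 of the 8, against 16.3% of all tested genes. The median deviation of the members from their own means was 0.26 in KO replicate 2 and -0.16 in WT replicate 2, on the log2(FPKM + 1) scale. It was -0.14 in WT replicate 1, where 1 member was above its mean, and 0.080 in KO replicate 3, where 7 were. In KO replicate 1 it was -0.068, with 1 member, Izumo1, above its mean, and in WT replicate 3 it was 0.074, with 6 above. The median difference of the members was 0.10 without KO replicate 2 and 0.14 without WT replicate 2, against 0.20 with all libraries.

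**Figure D3:**
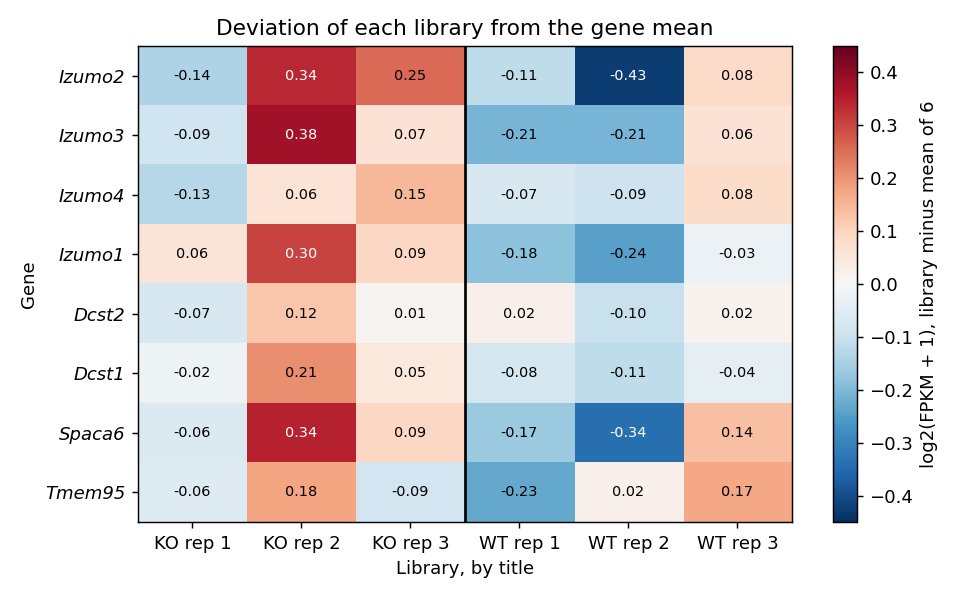
Deviation of each library from the gene's mean over the 6 libraries, in log2(FPKM + 1), for the 8 sperm-egg fusion genes (rows) and the libraries by title (columns), red above and blue below the mean. All 8 genes are above their mean in KO replicate 2, and 1 of 8 (Tmem95) is in WT replicate 2.

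Sums of cell type markers were also compared between the groups. The sum of 6 elongating spermatid genes was 31529 to 33564 FPKM in KO and 26380 to 30205 FPKM in WT, with no overlap. Prm1, Prm2, Tnp1 and Tnp2 made up most of that sum. Differences were positive for 5 of the 6 genes, while Odf1 was at 983 FPKM in KO and 1007 FPKM in WT. No gene of that list was called. The sum of 6 round spermatid genes was 638 to 786 FPKM in KO and 614 to 712 FPKM in WT, with overlap. All 6 of the round spermatid genes had a positive difference, with a median of 0.12. Their sum was highest in KO replicate 2 and lowest in WT replicate 2, as most members were, and 2 of the 6, Acrv1 and Spaca1, also stand in the acrosome list below. The spermatogonial list of 6 genes summed to 36.1 to 41.6 FPKM in KO and 43.3 to 50.9 FPKM in WT, without overlap. Uchl1 made up most of that sum, and the other 5 genes, set apart after the values were seen, summed to 14.97 to 17.1 FPKM in KO and 16.8 to 18.03 FPKM in WT, with overlap. The 5 pachytene spermatocyte genes summed to 1014 to 1106 and 1090 to 1139 FPKM. Among somatic lists, 0 of 5 Leydig, 0 of 3 peritubular smooth muscle and 0 of 2 endothelium genes had a positive difference. It was 1 of 5 tested Sertoli genes and 1 of 4 macrophage genes, against 34.3% of all tested genes. Sums of these lists overlapped between the groups except for endothelium, at 2.19 to 2.257 FPKM in KO and 2.259 to 3.43 FPKM in WT. The part of these markers' cell types in the values of the fusion genes was not tested.

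Further genes of the fusion step were taken from a fixed list of 15, of which 13 passed the filter. None of the 13 was called, where 1.15% of all tested genes were. A positive difference was seen in 10 of the 13, against 34.3% of all tested genes, and the median of the 13 was 0.044. Differences ran from -0.13 to 0.17 with limma adjusted p from 0.294 to 0.985. Llcfc1, which encodes the sperm protein SOF1, was at 238 ± 23.2 FPKM in KO and 229 ± 18.6 FPKM in WT (SD, n = 3 each). 4930451I11Rik, the gene of the fusion protein FIMP, was at 46.0 ± 5.70 and 43.0 ± 5.81 FPKM. Tmem81, whose product joins IZUMO1 and SPACA6 in a complex, was at 10.7 ± 1.51 and 10.3 ± 0.646 FPKM, close to the level of Tmem95. These sperm-side partners differed between groups by less than the spread within them.

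Genes that handle IZUMO1 or act beside it did not pass the test either. 1700029I15Rik, the gene of FREY, an endoplasmic reticulum protein that stabilises IZUMO1, was at 77.5 ± 5.88 FPKM in KO and 75.4 ± 9.56 FPKM in WT (SD, n = 3 each). Tmem190, whose product lies with IZUMO1 in the acrosome, was at 63.4 ± 7.32 and 63.3 ± 9.32 FPKM. Tssk6, a kinase needed for IZUMO1 to relocate, was at 241 ± 7.84 and 264 ± 10.9 FPKM. All 3 KO libraries were below all 3 WT libraries for Tssk6, as in 15.8% of all tested genes, with a difference of -0.13 (limma adjusted p = 0.294).

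Groups overlapped for the rest of the tested partners, given as KO and WT means with SD (n = 3 each). The acrosomal genes were Eqtn (69.6 ± 9.22 and 62.8 ± 8.05 FPKM), Spesp1 (73.9 ± 2.63 and 75.4 ± 3.25 FPKM) and Cd46 (6.30 ± 0.842 and 5.49 ± 0.757 FPKM). Crisp2 (1096 ± 54.6 and 1036 ± 17.0 FPKM) and Glipr1l1 (62.1 ± 11.5 and 60.4 ± 4.51 FPKM) encode cysteine-rich secretory proteins of sperm. The tetraspanin genes, best known from the egg side, were at 3.63 ± 0.170 and 3.45 ± 0.749 FPKM (Cd9) and at 26.7 ± 0.512 and 29.4 ± 2.30 FPKM (Cd81). Izumo1r, the egg receptor gene, was listed at 0 in 4 libraries and at 0.0230 and 0.0210 FPKM in KO replicates 1 and 3, under the level of 3 fragments on 1 kb. Crisp1, an epididymal gene, was at 0.0765 FPKM or less throughout.

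**Figure D4:**
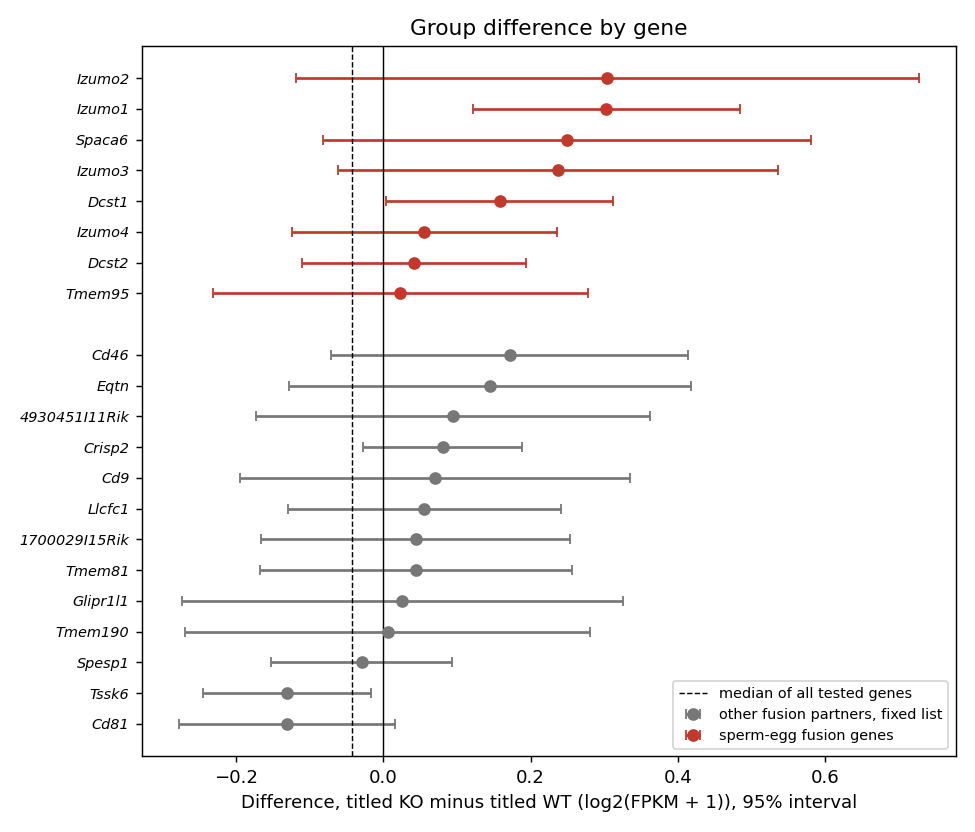
Difference between KO and WT on the log2(FPKM + 1) scale with its 95% interval from limma, for the 8 sperm-egg fusion genes (red) and 13 fusion partners from the fixed list (grey), with the median of all tested genes dashed. The intervals of Izumo1, Dcst1 and Tssk6 leave out 0 before adjustment for the 12952 genes tested, and none of these genes passed after it.

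A fixed list of 18 acrosome genes served for comparison, since the acrosome carries IZUMO1. It had 13 positive differences, against 34.3% of all tested genes, with a list median of 0.080. In KO replicate 2, 12 of the 18 genes were highest, against 19.3% of all tested genes. Of all tested genes 1.15% were called. Only Spaca5, an X-linked gene of an acrosomal lysozyme-like protein, passed the test. It was at 14.1 ± 1.47 FPKM in KO and 9.86 ± 0.791 FPKM in WT (SD, n = 3 each), a difference of 0.48 (SE 0.086, limma adjusted p = 0.0351). That call was lost when any of KO replicates 2 and 3 or WT replicates 1 and 2 was left out (limma adjusted p = 0.104 to 0.157).

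Genes with the most similar library pattern were sought for each member by the root mean square difference of the 6 deviations from the gene mean, on the log2(FPKM + 1) scale. For Izumo1 they were 4933432I09Rik (0.0179), 1700003P14Rik (0.0192) and Sh3kbp1 (0.0351), beside a root mean square deviation of 0.181 for Izumo1 itself. The closest gene was P2rx3 (0.0378) for Izumo2, Sun5 (0.0275) for Izumo3, Sav1 (0.0197) for Izumo4 and Tex24 (0.0280) for Spaca6. It was 1700020G17Rik (0.0276) for Tmem95, Fra10ac1 (0.0118) for Dcst1 and Tex30 (0.0179) for Dcst2. Among the members, Izumo3 and Spaca6 were closest to each other (0.0657), as were Dcst1 and Dcst2 (0.0655). The root mean square deviation of Dcst1 itself was 0.107 and that of Dcst2 was 0.073, little more than the distance between them. With 6 libraries and 12952 genes, close matches arise among many genes. There were 507 others nearer to Dcst1 than Dcst2 was, and 1128 nearer to Dcst2 than Dcst1 was.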

How the data were processed

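The deposited tables hold 1 value per row and library, with rows named by gene symbol. The unit was taken as FPKM from the values themselves, since neither the labels nor the headers name one. Per the submitters' processing notes, the authors used HISAT2 and mm10. No source used here names the quantifier, annotation or strand setting. Taken as FPKM, the deposited values would already be scaled to length and depth. Rows were summed per symbol (333 of 25165 symbols stood on several rows). Log2(FPKM + 1) was tested with limma 3.58.1 in R 4.3.3 (trend, robust) for 12952 genes whose mean reached 1 FPKM in KO or WT, with Benjamini-Hochberg adjustment over all of them and a threshold of 0.05. This scale understates the change of low genes. The procedure was tested on simulated data. Depth came from the spacing of FPKM times length in genes with 1 transcript. Positions came from GENCODE M21 (GRCm38, the assembly of mm10), promoters from RefSeq (GRCm38.p6), and near copies from BLAST 2.17.0. Figures were drawn with matplotlib 3.10.9. All 8 members, the target, the fixed partner list, called acrosome genes and the nearest patterns are named. Members and lists were chosen with earlier results of these data known. Planned protein features are not analysed here. Alternatives covered pseudocounts, filters, scalings, variance estimation, the replicate number as a block, single-row symbols and each library left out.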

Additional observations from a re-analysis of the deposited data

How the results depend on the processing

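No member was past the threshold under any of the 16 alternatives. Izumo1 lay between 0.23 and 0.36 on the log2 scale (limma adjusted p = 0.0509, with WT replicate 3 left out, to 0.404). Of 128 member values 4 turned sign, all with 1 library left out: Tmem95 to -0.061 (KO replicate 2) and -0.086 (WT replicate 1), Dcst2 to -0.0099 (KO replicate 2) and Izumo4 to -0.0050 (KO replicate 3). Their highest values with 1 library left out were 0.11, 0.088 and 0.13. The median of the members was 0.10 (without KO replicate 2) to 0.27. Over all genes limma called 149, 88 with no filter, and 73 to 233 with 1 library left out: 73 (KO replicate 2), 77 (KO replicate 3), 81 (WT replicate 1) and 233 (WT replicate 3). Of the calls 68.5% were higher as deposited and 78.6% with upper-quartile scaling.

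With the replicate number as a block 50 genes and 0 members were called, with Izumo1 at 0.30 (limma adjusted p = 0.327). Libraries of the same number had correlations of their deviations over tested genes of 0.0647, -0.129 and 0.0614. Not every library correlated best with its own number. With so few libraries, and deviations taken from each group's own mean, these values cannot decide whether the numbers pair the libraries. Some partners turned sign. Tmem190 was -0.0073 with equal totals and -0.089 to 0.12 with 1 library left out (-0.080 for KO replicate 2, -0.0095 for WT replicate 1). Spesp1 was 0.013 with median-of-ratios and 0.00062 with upper-quartile scaling. Tssk6 kept its sign under these scalings, at -0.088 and -0.10, but its limma unadjusted p rose to 0.199 and 0.133. With 1 library left out, Llcfc1 ranged from -0.022 (KO replicate 2) to 0.11, with -0.013 for WT replicate 2. Tmem81 ranged from -0.051 (KO replicate 2) to 0.14, and 1700029I15Rik from -0.025 (WT replicate 2) to 0.14, with -0.015 for KO replicate 2. Glipr1l1 ranged from -0.10 (KO replicate 2) to 0.17, with -0.020 for WT replicate 2, and Cd9 from -0.073 (WT replicate 1) to 0.17. The call of Spaca5 was also lost with no filter (limma adjusted p = 0.107), with no robust estimation (0.0607) and with the block (0.0952), and that of 1700027A15Rik with a pseudocount of 0.01 (-14.89, 0.0644). The cause was not tested. By the estimated fragment counts, depth limits Tmem95 most.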
